A study of Mus musculus with 20 samples.

Results

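The interferon response and antigen presentation genes described here are 47 genes of mouse liver, 38 of the interferon response and 9 of antigen presentation on MHC class I, out of 53599 gene rows measured by RNA sequencing. They were taken by name from a list of interferon-induced genes, and all 47 were found in both count tables and passed the filter on low counts in every comparison. The rule goes by name alone, but the list was drawn up with earlier results of these data known.

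The libraries came from bulk liver of male and female mice of 2 genotypes, PPARα knockout (KO) and mice expressing human PPARα (hPPARa). PPARα is the nuclear receptor through which fatty acids, and ligands such as perfluorooctanoic acid (PFOA), switch on fat oxidation. The labels call the human gene a transgene but do not give its promoter, the mouse strain or the deleted part of the mouse gene. From weaning the mice drank NERL water with 0.5% sucrose, either with PFOA at 8 µM (the unit is printed as µm and was read as micromolar) or without it (vehicle), over 6 to 7 weeks. Every group ate the same American-type diet, with 51.8% of its energy from carbohydrate, 33.5% from fat and 14.7% from protein. On PFOA there were 3 KO males, 3 KO females, 3 hPPARa males and 2 hPPARa females, and on vehicle 3 KO males, 1 KO female, 2 hPPARa males and 3 hPPARa females, which makes 20 libraries.

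Total counts ran from 14973673 to 17953860 per library. Nothing in the labels tells whether samples within a group are separate mice, so a p-value here measures only how these samples vary, and that variation may be technical. Ppara itself had 8.42 to 25.1 CPM (counts of a gene scaled to the library total) in KO and 17.0 to 39.6 CPM in hPPARa libraries, which does not check the genotype labels, since the deleted part is not given. Xist and Y-linked genes matched the labelled sex except in 3 KO libraries, KO male PFOA replicate 2, KO female PFOA replicate 2 and KO female vehicle replicate 1, which carried Xist as well as Y-linked transcripts (mixed sex signal). For the KO comparisons, counts and calls that were lost without those libraries are given as such.

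Interferons are secreted proteins that bind receptors on the cell surface and, through the JAK kinases, activate STAT transcription factors. A complex that holds Stat2 and Irf9 then binds a DNA element called the ISRE in front of its target genes, and STAT dimers bind the GAS element. The induced genes sense and destroy viral nucleic acid, attack vacuoles that hold pathogens, and cut, transport and load peptides onto MHC class I molecules for display to T cells. Hepatocytes and the liver's resident macrophages (Kupffer cells) both express this programme.

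RefSeq promoter windows, from 250 bases before to 50 after the gene start (build GRCm38.p6), were at hand for 38 of the 47 genes. An ISRE core (GAAA, any 2 bases, GAAA) was searched on both strands, and a gene counted if any of its windows held a match. It was found for 19 of the 38 genes (50%), against 1079 of all 27025 genes with a window (3.99%). By role, it was found for 6 of 7 interferon-inducible GTPases, 3 of 4 Ifit genes, 3 of 5 Oas genes and 1 of 8 antigen presentation genes. The GAS core, TTCNNNGAA, was found for 9 of the 38 genes (23.7%), against 2582 of 27025 (9.55%). No GAS match overlapped a match of the ISRE core within the stretches printed here. A match is a description of the letters and not a measured binding site.

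The stretches of these windows printed here show the elements of genes whose values follow, with matches in capitals; an ISRE core of the other strand reads TTTC, any 2 bases, TTTC. Isg15 (chr4:156200819-156200938, minus strand) carries a run of 3 overlapping ISRE cores. Ifit1 (chr19:34640769-34640888, plus strand), Ifit3 (chr19:34583359-34583528, plus strand) and Ifit3b (chr19:34607757-34607956, plus strand) each carry a pair of ISRE cores. Gbp7 (chr3:142530226-142530335, plus strand) carries 1 ISRE core and 2 GAS cores. Among the antigen presentation genes, the ISRE core was in the window of B2m alone (chr2:122147537-122147686, plus strand) and the GAS core in that of Psmb8 alone (chr17:34198085-34198194, plus strand).
Isg15: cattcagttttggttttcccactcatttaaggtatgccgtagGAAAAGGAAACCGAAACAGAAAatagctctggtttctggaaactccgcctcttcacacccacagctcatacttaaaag
Ifit1: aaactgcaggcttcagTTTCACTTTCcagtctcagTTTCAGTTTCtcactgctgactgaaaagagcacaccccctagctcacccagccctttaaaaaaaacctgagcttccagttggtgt
Ifit3: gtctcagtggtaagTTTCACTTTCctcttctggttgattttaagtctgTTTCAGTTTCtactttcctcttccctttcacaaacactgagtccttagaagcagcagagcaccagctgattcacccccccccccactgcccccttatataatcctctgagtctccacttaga
Ifit3b: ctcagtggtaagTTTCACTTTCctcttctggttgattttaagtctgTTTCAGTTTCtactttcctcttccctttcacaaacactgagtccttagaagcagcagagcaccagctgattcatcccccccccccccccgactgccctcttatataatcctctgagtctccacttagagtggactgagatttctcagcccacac
Gbp7: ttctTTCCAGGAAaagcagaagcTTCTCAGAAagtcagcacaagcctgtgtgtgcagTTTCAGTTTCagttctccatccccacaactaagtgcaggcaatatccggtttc
B2m: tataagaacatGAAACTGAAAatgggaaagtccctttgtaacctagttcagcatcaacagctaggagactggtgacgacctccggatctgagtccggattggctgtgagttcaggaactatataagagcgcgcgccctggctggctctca
Psmb8: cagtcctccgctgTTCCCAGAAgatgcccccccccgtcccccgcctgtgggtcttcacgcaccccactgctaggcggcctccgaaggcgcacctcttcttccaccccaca

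Ifit3 and Ifit3b are near copies, with 76.2% of aligned window bases identical. In their transcripts, 31.7% of 100-base stretches of Ifit3 and 27.4% of those of Ifit3b also occur in other genes, so reads could have been split or lost in the authors' counting. The same holds for Oas1a (40.9%) and Oas1g (38.2%), and less for Rtp4 (11.2%), Gbp7 (10.2%), Igtp (5.67%) and H2-D1 (4.64%). Igtp and Irgm2, Irf9 and Rnf31, Tapbp and Zbtb22, and Ifi47 and Olfr56 overlap on the same strand, while Psmb9 and Tap1, Irf7 and Phrf1, Rtp4 and Masp1, B2m and Patl2, and Dhx58 and its antisense gene Dhx58os overlap on opposite strands, among others, so their single values are uncertain too.

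The effect of PFOA in livers with human PPARα was read first, from 5 PFOA and 5 vehicle libraries of hPPARa, in a model that also held sex. Sensors, transcription factors and effectors of the interferon response, such as Ifih1, Irf9, Ifit1, Mx2 and Rtp4, and the antigen presentation genes Psmb8, B2m, H2-K1 and H2-D1 were lower with PFOA, and the genes called lower fell 1.31-fold to 3.22-fold. Of the 47 genes, 23 were lower with PFOA and 0 higher, at an adjusted p under 0.05. Over all 14400 genes tested 9.76% were lower and 12.8% higher. A further 9 genes were lower at an unadjusted p under 0.05 only, so that 32 of the 47 passed that level, against 36.1% of all genes in either direction. The log2 fold change (PFOA over vehicle) was negative for 45 of the 47, against 51.5% of all genes, and its median was −0.84, against −0.01 over all genes. Among the 38 interferon response genes 19 were lower with a median of −0.91, and among the 9 antigen presentation genes 4 were lower with a median of −0.41. DESeq2 called 28 of the 47 lower and 0 higher. The count of 23 became 9 without hPPARa female PFOA replicate 1, and also 9 without hPPARa female PFOA replicate 2. Ifih1, Ifit1, Ifit3b, Mx2, Ifi35, Rtp4 and Psmb8 kept their call in all 15 alternatives run. In bulk liver, fewer cells of a type and less RNA per cell cannot be told apart. In the same comparison 5 of 12 Kupffer cell, 5 of 9 hepatocyte and 3 of 6 stellate cell markers were lower. Of 8 sinusoidal endothelial markers, 4 were higher. The markers, and the alternatives in which calls were lost, are given after the genes.

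**Figure D1:**
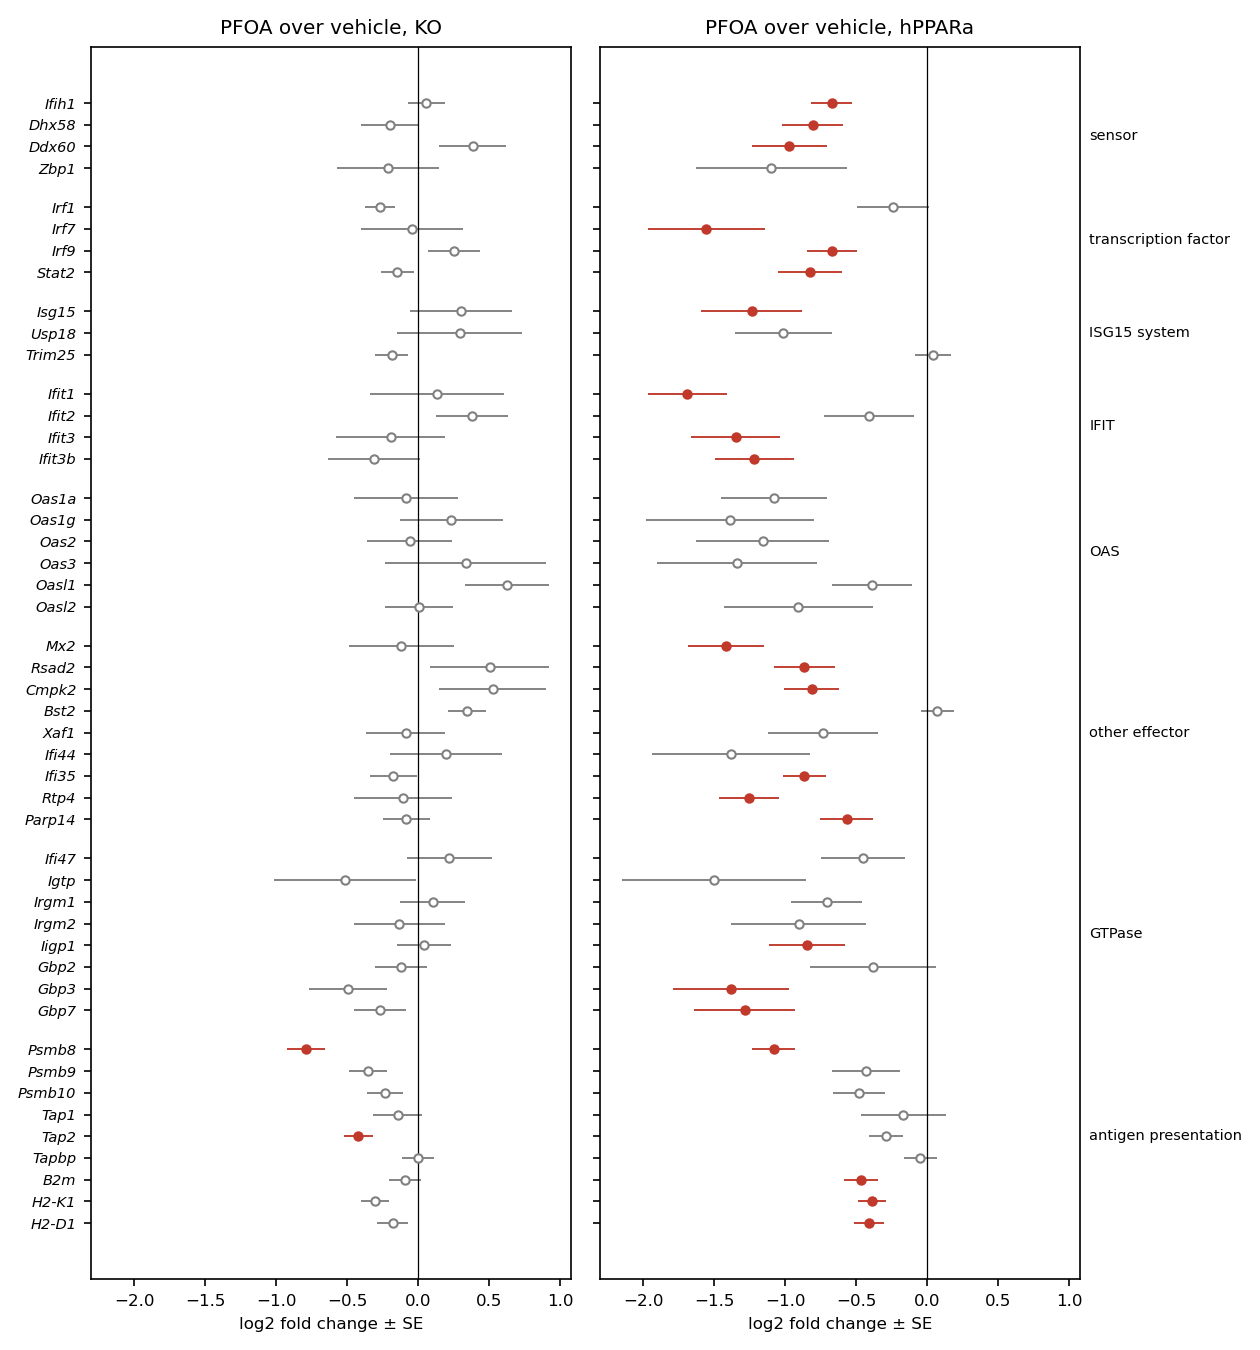
Log2 fold change of the 47 genes with PFOA over vehicle (x axis; point, edgeR estimate; bar, SE), in KO livers on the left and hPPARa livers on the right, with genes down the page grouped by role. Filled red points passed an adjusted p of 0.05, and open grey points did not; 2 genes, Psmb8 and Tap2, are red in KO and 23 in hPPARa.

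The sensors of foreign nucleic acid were lower with PFOA in 3 of 4 cases. Ifih1, the cytoplasmic sensor of viral RNA duplexes, had 12.1, 19.3 and 20.4 CPM in PFOA males and 17.9 and 18.9 CPM in PFOA females, against 28.1 and 28.3 CPM in vehicle males and 34.8, 26.2 and 24.1 CPM in vehicle females. All 5 PFOA libraries lay below all 5 vehicle libraries, and Ifih1 fell 1.59-fold, a log2 fold change of −0.67 ± 0.14 (adjusted p = 0.00473). Ddx60, a helicase that aids this sensing, had 2.97, 3.22 and 2.71 CPM in PFOA males and 3.60 and 3.35 CPM in PFOA females, against 4.61 and 4.57 CPM in vehicle males and 13.7, 6.70 and 4.98 CPM in vehicle females. Its groups did not overlap either, and it fell, with a log2 fold change of −0.97 ± 0.26 (adjusted p = 0.0188), with vehicle female replicate 1 the highest library. Dhx58, a related helicase that tunes the sensor, stood at −0.81 ± 0.22 (adjusted p = 0.0190). The calls of Dhx58 and Ddx60 were lost without either PFOA female (adjusted p up to 0.0764 and 0.0788). Zbp1, which recognises Z-form nucleic acid and can start necroptosis, had 3.21, 5.02 and 3.25 CPM in PFOA males and 5.29 and 3.24 CPM in PFOA females, against 3.31 and 3.49 CPM in vehicle males and 22.4, 24.4 and 9.69 CPM in vehicle females. Its PFOA values lay among those of the vehicle males and below those of the vehicle females, and it did not pass (−1.10 ± 0.53, adjusted p = 0.178).

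Of the 4 transcription factors of the response, Irf7, Irf9 and Stat2 were lower. Irf9, the DNA-binding subunit of the STAT complex, had 27.6, 32.7 and 22.96 CPM in PFOA males and 26.7 and 28.9 CPM in PFOA females, against 41.1 and 34.6 CPM in vehicle males and 60.4, 59.8 and 33.5 CPM in vehicle females. The lowest vehicle library lay just above the highest PFOA library, and Irf9 fell, with a log2 fold change of −0.67 ± 0.18 (adjusted p = 0.0191). Stat2, its signalling partner, had 50.4, 52.3 and 35.0 CPM in PFOA males and 31.6 and 36.9 CPM in PFOA females, against 66.1 and 56.3 CPM in vehicle males and 109, 74.1 and 59.5 CPM in vehicle females. The groups did not overlap, and Stat2 fell by 0.83 ± 0.23 (adjusted p = 0.0253). Irf7, which amplifies the production of type I interferon, fell 2.94-fold (−1.55 ± 0.41, adjusted p = 0.0309). Its PFOA libraries held 7.71 to 15.4 CPM, against 22.2 to 101 CPM on vehicle. Irf1, which acts chiefly downstream of interferon gamma, was at −0.24 ± 0.25 (adjusted p = 0.529) with overlapping groups. Without hPPARa female PFOA replicate 1 or 2, the calls of Irf7, Irf9 and Stat2 were lost (adjusted p up to 0.115, 0.0778 and 0.0960); those of Irf7 and Stat2 were also lost without hPPARa male PFOA replicate 3, those of Irf7 and Irf9 without hPPARa male vehicle replicate 1, and that of Irf7 without hPPARa female vehicle replicate 2 and with no filter on low counts.

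Isg15 encodes a ubiquitin-like protein that is attached to other proteins. It had 3.52, 5.95 and 3.13 CPM in PFOA males and 6.69 and 5.06 CPM in PFOA females, against 7.86 and 7.05 CPM in vehicle males and 29.5, 14.3 and 9.27 CPM in vehicle females. The groups did not overlap, and Isg15 fell 2.35-fold (−1.23 ± 0.35, adjusted p = 0.0342), a call lost without either PFOA female and without any of the male libraries except PFOA replicate 2, and with no filter on low counts (adjusted p up to 0.124). Usp18, which removes Isg15 from proteins and dampens the interferon receptor, had 4.49, 6.82 and 4.22 CPM in PFOA males and 9.34 and 5.74 CPM in PFOA females, against 10.5 and 5.84 CPM in vehicle males and 28.2, 18.8 and 9.62 CPM in vehicle females. Vehicle male replicate 2 lay among the PFOA values, and Usp18 did not pass (−1.01 ± 0.34, adjusted p = 0.0615). Trim25, a ubiquitin ligase of RNA sensing, was close to equal in the groups, at 0.04 ± 0.13 (adjusted p = 0.853).

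The Ifit proteins bind viral RNA and block its translation. Ifit1 had 3.40, 5.58 and 4.098 CPM in PFOA males and 9.84 and 6.99 CPM in PFOA females, against 15.7 and 8.86 CPM in vehicle males and 44.8, 26.7 and 19.4 CPM in vehicle females. The vehicle females were highest, and only PFOA female replicate 1 lay above a vehicle library, vehicle male replicate 2. Ifit1 fell 3.22-fold, with a log2 fold change of −1.69 ± 0.28 (adjusted p = 0.00196), the lowest value among the 47 genes. Ifit3b had 1.46, 1.43 and 1.33 CPM in PFOA males and 2.03 and 1.70 CPM in PFOA females, against 2.40 and 1.81 CPM in vehicle males and 8.23, 6.52 and 3.94 CPM in vehicle females. It fell 2.33-fold (−1.22 ± 0.28, adjusted p = 0.00715), and its near copy Ifit3 fell 2.55-fold (−1.35 ± 0.31, adjusted p = 0.0140), a call lost without either PFOA female (adjusted p up to 0.0706). Ifit2 had 3.58, 3.16 and 3.07 CPM in PFOA males and 3.77 and 3.58 CPM in PFOA females, against 2.40 and 2.62 CPM in vehicle males and 11.3, 7.43 and 4.50 CPM in vehicle females. PFOA males lay above vehicle males and PFOA females below vehicle females, and Ifit2 did not pass (−0.41 ± 0.32, adjusted p = 0.382).

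The oligoadenylate synthetases make the messenger that activates RNase L, the nuclease that degrades viral RNA. None of the 6 Oas genes passed by edgeR, 4 had an unadjusted p under 0.05, all lower, and DESeq2 called 2 lower. Oas1a had 1.03, 1.12 and 0.723 CPM in PFOA males and 1.18 and 0.966 CPM in PFOA females, against 1.23 and 0.873 CPM in vehicle males and 5.85, 3.11 and 2.49 CPM in vehicle females. The PFOA values and the vehicle males overlapped, while the 3 vehicle females were highest (−1.08 ± 0.38, adjusted p = 0.0539). Oas3 had 0.243, 0.620 and 0.241 CPM in PFOA males and 0.563 and 0.511 CPM in PFOA females, against 0.390 and 0.403 CPM in vehicle males and 4.33, 1.77 and 0.831 CPM in vehicle females. This order was the same as for Oas1a, and its log2 fold change was −1.34 ± 0.56 (adjusted p = 0.106). Oas1g was at −1.39 ± 0.59, Oas2 at −1.16 ± 0.47, Oasl2 at −0.91 ± 0.53 and Oasl1 at −0.39 ± 0.28 on the same scale.

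Of the other effectors, 6 of 9 were lower. Rtp4, an interferon-induced chaperone of receptors, had 12.7, 11.9 and 9.46 CPM in PFOA males and 13.6 and 10.5 CPM in PFOA females, against 22.7 and 20.5 CPM in vehicle males and 47.6, 36.4 and 23.1 CPM in vehicle females. The groups did not overlap, and Rtp4 fell 2.39-fold (−1.26 ± 0.21, adjusted p = 0.00167). Ifi35, a partner of the interferon-induced protein Nmi, had 21.8, 20.02 and 14.3 CPM in PFOA males and 15.9 and 15.5 CPM in PFOA females, against 29.2 and 26.5 CPM in vehicle males and 40.9, 32.2 and 31.5 CPM in vehicle females. It fell 1.82-fold (−0.86 ± 0.15, adjusted p = 0.00123), again with no overlap. Mx2, an antiviral dynamin-like GTPase, had 3.76, 4.28 and 3.19 CPM in PFOA males and 4.28 and 3.81 CPM in PFOA females, against 9.42 and 7.18 CPM in vehicle males and 20.2, 11.3 and 7.06 CPM in vehicle females. Its PFOA libraries were within a narrow range, below every vehicle library, and it fell 2.67-fold (−1.42 ± 0.27, adjusted p = 0.00302).

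Cmpk2, a mitochondrial nucleotide kinase, had 2.49, 1.92 and 2.05 CPM in PFOA males and 4.05 and 3.69 CPM in PFOA females, against 4.55 and 3.56 CPM in vehicle males and 8.66, 5.91 and 4.57 CPM in vehicle females, and fell, with a log2 fold change of −0.81 ± 0.19 (adjusted p = 0.00898). Rsad2 (viperin), which makes a chain-ending nucleotide for viral polymerases, fell by 0.87 ± 0.21 (adjusted p = 0.0118). In the joint fit of the 20 libraries neither passed (adjusted p 0.0622 for Cmpk2 and up to 0.0992 for Rsad2, which was also lost without hPPARa male vehicle replicate 1). Parp14, a mono-ADP-ribosyltransferase, fell by 0.57 ± 0.19 (adjusted p = 0.0482), a call lost in 10 of 15 alternatives, among them the removal of any library except vehicle female replicate 3 (adjusted p up to 0.139). Xaf1, a pro-apoptotic binding protein, was at −0.73 ± 0.39 (adjusted p = 0.215). Ifi44 was at −1.38 ± 0.56 (adjusted p = 0.112), although its groups did not overlap. Bst2 (tetherin), which holds budding viruses on the cell surface, was at 0.07 ± 0.12 (adjusted p = 0.699).

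Interferon-inducible GTPases disrupt the vacuoles in which parasites and bacteria live. Of 8, Gbp3, Gbp7 and Iigp1 were lower. Gbp7, a guanylate-binding protein, had 7.15, 10.2 and 11.3 CPM in PFOA males and 10.6 and 11.6 CPM in PFOA females, against 15.1 and 13.7 CPM in vehicle males and 39.5, 62.7 and 24.5 CPM in vehicle females. The groups did not overlap and Gbp7 fell 2.44-fold (−1.28 ± 0.36, adjusted p = 0.0328). Gbp3 had 3.27, 4.77 and 2.95 CPM in PFOA males and 4.95 and 6.19 CPM in PFOA females, against 4.87 and 5.84 CPM in vehicle males and 27.3, 31.6 and 11.2 CPM in vehicle females. The 3 vehicle females stood above the rest, and Gbp3 fell by 1.38 ± 0.41 (adjusted p = 0.0414) on the log2 scale. Iigp1 had 253, 273 and 167 CPM in PFOA males and 153 and 179 CPM in PFOA females, against 267 and 276 CPM in vehicle males and 444, 566 and 351 CPM in vehicle females. It fell by 0.84 ± 0.27 (adjusted p = 0.0474), with the vehicle females highest, and with both PFOA females and PFOA male replicate 3 lowest.

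Each of these 3 GTPase calls was lost in 6 or more of 15 alternatives, including the replicate block, no filter on low counts and the removal of either PFOA female (adjusted p up to 0.162 for Gbp3, 0.129 for Gbp7 and 0.168 for Iigp1). For Gbp3 and Gbp7 the removal of vehicle female replicate 1 or PFOA male replicate 1 did so as well, for Gbp3 also that of vehicle male replicate 2 or PFOA male replicate 3, and for Iigp1 that of vehicle female replicate 1 or 3 or of PFOA male replicate 3. Igtp and its overlapping neighbour Irgm2 were at −1.50 ± 0.65 and −0.91 ± 0.48 with wide errors. Vehicle female replicate 2 held 249.1 CPM of Igtp against 22.6 to 80.1 CPM in the other vehicle libraries, and 172 CPM of Irgm2. Irgm1, a regulator of this family, was at −0.71 ± 0.25 (adjusted p = 0.0681), Ifi47 at −0.45 ± 0.30 and Gbp2 at −0.38 ± 0.45.

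In antigen presentation, Psmb8, B2m, H2-K1 and H2-D1 were lower. Psmb8, a catalytic subunit of the immunoproteasome that cuts peptides for display, had 8.37, 8.62 and 8.02 CPM in PFOA males and 10.4 and 10.5 CPM in PFOA females, against 14.2 and 16.1 CPM in vehicle males and 22.5, 33.7 and 20.002 CPM in vehicle females. Every PFOA library lay below every vehicle library, Psmb8 fell 2.12-fold (−1.08 ± 0.15, adjusted p = 0.000228), and it had the lowest adjusted p of the 47. H2-K1, a class I heavy chain, had 809, 682 and 720.5 CPM in PFOA males and 831 and 843 CPM in PFOA females, against 955 and 888 CPM in vehicle males and 1105, 1219.8 and 1099 CPM in vehicle females. It fell 1.31-fold (−0.39 ± 0.10, adjusted p = 0.0117). H2-D1, a second heavy chain, fell 1.33-fold (−0.41 ± 0.11, adjusted p = 0.0145) and B2m, the shared light chain, 1.38-fold (−0.47 ± 0.12, adjusted p = 0.0132). Without either PFOA female these 3 no longer passed (adjusted p up to 0.0541, 0.0625 and 0.0634). The other immunoproteasome subunits Psmb9 and Psmb10 were at −0.43 ± 0.24 and −0.48 ± 0.18. Psmb9 had 13.9, 14.1 and 15.4 CPM in PFOA males and 17.7 and 13.8 CPM in PFOA females, against 12.5 and 17.8 CPM in vehicle males and 18.5, 39.9 and 22.2 CPM in vehicle females. Only the vehicle females, replicate 2 above all, lay clear of the rest. The peptide transporter subunits were at −0.17 ± 0.30 for Tap1 and −0.29 ± 0.12 for Tap2, and tapasin, which loads the peptides (Tapbp), at −0.05 ± 0.12. Tap2 had 16.1, 15.3 and 17.4 CPM in PFOA males and 20.5 and 16.8 CPM in PFOA females, against 19.2 and 17.9 CPM in vehicle males and 23.5, 29.5 and 19.7 CPM in vehicle females. PFOA and vehicle libraries overlapped.

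Counted without a model, 16 of the 47 genes had every PFOA library below every vehicle library, where 5.68% of all genes did, and 0 had every PFOA library above, where 8.63% did. Not all 16 passed the test: Ifi44 and Irgm1 did not.

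The same comparison in livers without PPARα set 6 PFOA against 4 vehicle KO libraries, with 1 female among the vehicle libraries. Here 2 of the 47 genes, Psmb8 and Tap2, were lower and 0 higher, where 6.36% of all 15334 genes were lower and 7.41% higher. At an unadjusted p under 0.05 there were 5 lower and 1 higher, against 29.1% of all genes, and DESeq2 called 3 lower. The median log2 fold change was −0.09, against −0.02 over all genes, with 29 negative, against 52.1% of all genes. None of the 38 interferon response genes passed by edgeR or by DESeq2, and 2 of them had an unadjusted p under 0.05. The count of 2 became 4 without KO male vehicle replicate 2, 4 without KO male PFOA replicate 3 and 0 without the 3 libraries of mixed sex signal.

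Psmb8 had 8.12, 7.66 and 11.9 CPM in PFOA males and 13.9, 11.6 and 14.7 CPM in PFOA females, against 17.4, 14.3 and 17.6 CPM in vehicle males and 21.9 CPM in the vehicle female in KO livers. In each sex the PFOA libraries lay below the vehicle libraries, and Psmb8 fell 1.73-fold, with a log2 fold change of −0.79 ± 0.14 (adjusted p = 0.00222). Tap2, a subunit of the peptide transporter, had 14.6, 13.3 and 16.5 CPM in PFOA males and 20.1, 16.4 and 20.1 CPM in PFOA females, against 22.2, 19.2 and 20.4 CPM in vehicle males and 23.6 CPM in the vehicle female. It fell 1.34-fold (−0.42 ± 0.10, adjusted p = 0.0150), and PFOA female replicates 1 and 3 alone reached the vehicle range. Without the 3 libraries, the adjusted p was 0.0642 for Psmb8 and 0.136 for Tap2. H2-K1 had 602, 717 and 795 CPM in PFOA males and 892, 841 and 878 CPM in PFOA females, against 921, 857 and 834 CPM in vehicle males and 1072 CPM in the vehicle female. It was lower with PFOA within each sex group but did not pass (−0.30 ± 0.10, adjusted p = 0.0591). Psmb9 had 12.9, 13.2 and 17.5 CPM in PFOA males and 15.2, 15.3 and 17.9 CPM in PFOA females, against 22.2, 14.9 and 16.7 CPM in vehicle males and 22.02 CPM in the vehicle female, and stood at −0.35 ± 0.13 (adjusted p = 0.0900). All 9 antigen presentation genes had a negative log2 fold change in KO, with a median of −0.23, and Tapbp was nearest to 0.

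The PFOA and vehicle ranges of the sensors overlapped in KO. Ifih1 had 30.5, 20.1 and 27.0 CPM in PFOA males and 29.7, 27.6 and 37.1 CPM in PFOA females, against 26.4, 27.3 and 27.7 CPM in vehicle males and 25.4 CPM in the vehicle female. The vehicle libraries lay inside the PFOA range (0.06 ± 0.13, adjusted p = 0.822). Ddx60 had 3.75, 5.09 and 6.55 CPM in PFOA males and 8.58, 6.15 and 11.5 CPM in PFOA females, against 3.01, 4.87 and 2.71 CPM in vehicle males and 8.01 CPM in the vehicle female, and the highest values were those of females on either water (0.38 ± 0.24, adjusted p = 0.309). Zbp1 had 4.03, 5.03 and 9.82 CPM in PFOA males and 17.0, 10.8 and 13.6 CPM in PFOA females, against 5.81, 12.6 and 3.91 CPM in vehicle males and 15.4 CPM in the vehicle female, with groups that overlapped (−0.21 ± 0.36, adjusted p = 0.746).

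The transcription factors overlapped as well. Irf9 had 38.2, 44.2 and 61.4 CPM in PFOA males and 60.0, 46.6 and 59.5 CPM in PFOA females, against 38.5, 50.1 and 27.5 CPM in vehicle males and 50.0 CPM in the vehicle female, a log2 fold change of 0.25 ± 0.18 (adjusted p = 0.392). Stat2 had 51.5, 55.7 and 68.6 CPM in PFOA males and 81.7, 61.3 and 58.6 CPM in PFOA females, against 66.6, 71.5 and 61.2 CPM in vehicle males and 71.0 CPM in the vehicle female, at −0.15 ± 0.12 (adjusted p = 0.439). In the Isg15 system, Isg15 itself had 6.61, 9.16 and 14.1 CPM in PFOA males and 26.3, 11.5 and 24.4 CPM in PFOA females, against 7.48, 13.3 and 5.11 CPM in vehicle males and 14.8 CPM in the vehicle female. Its lowest and highest libraries were a vehicle male and a PFOA female (0.30 ± 0.36, adjusted p = 0.631). Usp18 had 13.1, 12.4 and 31.2 CPM in PFOA males and 37.6, 23.8 and 30.2 CPM in PFOA females, against 9.15, 24.9 and 6.75 CPM in vehicle males and 31.2 CPM in the vehicle female, at 0.29 ± 0.44 (adjusted p = 0.716).

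Among the effectors, Ifit1 had 11.7, 16.0 and 21.7 CPM in PFOA males and 55.8, 22.1 and 69.2 CPM in PFOA females, against 14.0, 27.3 and 6.44 CPM in vehicle males and 40.1 CPM in the vehicle female. The females were higher than most males on either water, and the change with PFOA was 0.13 ± 0.47 (adjusted p = 0.885). Ifit3b had 2.13, 3.17 and 3.92 CPM in PFOA males and 6.82, 4.01 and 10.97 CPM in PFOA females, against 2.94, 5.41 and 2.21 CPM in vehicle males and 10.2 CPM in the vehicle female, at −0.31 ± 0.32 (adjusted p = 0.570). Ifit2 had 3.14, 4.25 and 5.61 CPM in PFOA males and 5.87, 4.07 and 8.27 CPM in PFOA females, against 2.61, 3.85 and 2.15 CPM in vehicle males and 5.94 CPM in the vehicle female, at 0.38 ± 0.25 (adjusted p = 0.351). For all 3 Ifit genes the vehicle female lay inside the range of the PFOA females. Oas1a had 1.51, 1.08 and 2.34 CPM in PFOA males and 3.52, 1.54 and 2.81 CPM in PFOA females, against 1.67, 2.57 and 0.631 CPM in vehicle males and 3.15 CPM in the vehicle female, at −0.09 ± 0.37 (adjusted p = 0.900). Oas3 had 0.448, 1.02 and 1.70 CPM in PFOA males and 1.87, 1.59 and 2.31 CPM in PFOA females, against 0.267, 2.03 and 0.189 CPM in vehicle males and 1.55 CPM in the vehicle female, at 0.33 ± 0.57 (adjusted p = 0.747). Among the KO vehicle males, replicate 2 was the highest library for both Oas genes.

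Rtp4 had 20.3, 26.3 and 28.8 CPM in PFOA males and 56.1, 25.9 and 51.4 CPM in PFOA females, against 24.5, 48.4 and 16.7 CPM in vehicle males and 39.4 CPM in the vehicle female, at −0.11 ± 0.35 (adjusted p = 0.872). Ifi35 had 19.6, 15.7 and 21.0 CPM in PFOA males and 30.9, 20.4 and 24.1 CPM in PFOA females, against 22.2, 29.4 and 20.6 CPM in vehicle males and 21.8 CPM in the vehicle female, at −0.18 ± 0.16 (adjusted p = 0.523). Cmpk2 had 2.35, 5.69 and 6.08 CPM in PFOA males and 11.4, 4.40 and 12.2 CPM in PFOA females, against 3.47, 4.26 and 1.83 CPM in vehicle males and 6.77 CPM in the vehicle female, at 0.52 ± 0.38 (adjusted p = 0.398). The PFOA and vehicle ranges of these 3 genes overlapped. Of the GTPases, Gbp7 had 13.2, 12.4 and 13.6 CPM in PFOA males and 19.7, 15.3 and 27.0 CPM in PFOA females, against 13.9, 18.5 and 10.4 CPM in vehicle males and 29.6 CPM in the vehicle female, at −0.27 ± 0.19 (adjusted p = 0.364). Gbp3 had 3.87, 4.49 and 5.67 CPM in PFOA males and 14.1, 8.85 and 18.1 CPM in PFOA females, against 4.34, 8.38 and 3.72 CPM in vehicle males and 25.1 CPM in the vehicle female, at −0.49 ± 0.28 (adjusted p = 0.267). Iigp1 had 327, 303 and 358 CPM in PFOA males and 350.0, 269 and 357 CPM in PFOA females, against 310.3, 487 and 233 CPM in vehicle males and 273 CPM in the vehicle female, at 0.04 ± 0.19 (adjusted p = 0.914). The vehicle female was the highest library for both Gbp genes and not for Iigp1.

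Bst2 was the only one of the 47 genes with KO groups that did not overlap. It had 101, 103 and 100.3 CPM in PFOA males and 163, 128 and 110.5 CPM in PFOA females, against 73.0, 99.3 and 90.2 CPM in vehicle males and 87.7 CPM in the vehicle female, so that every PFOA library lay above every vehicle library, as 5.67% of all genes did, but it did not pass the test (0.34 ± 0.13, adjusted p = 0.102). No gene of the 47 had every KO PFOA library below every vehicle library, against 3.97% of all genes.

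**Figure D2:**
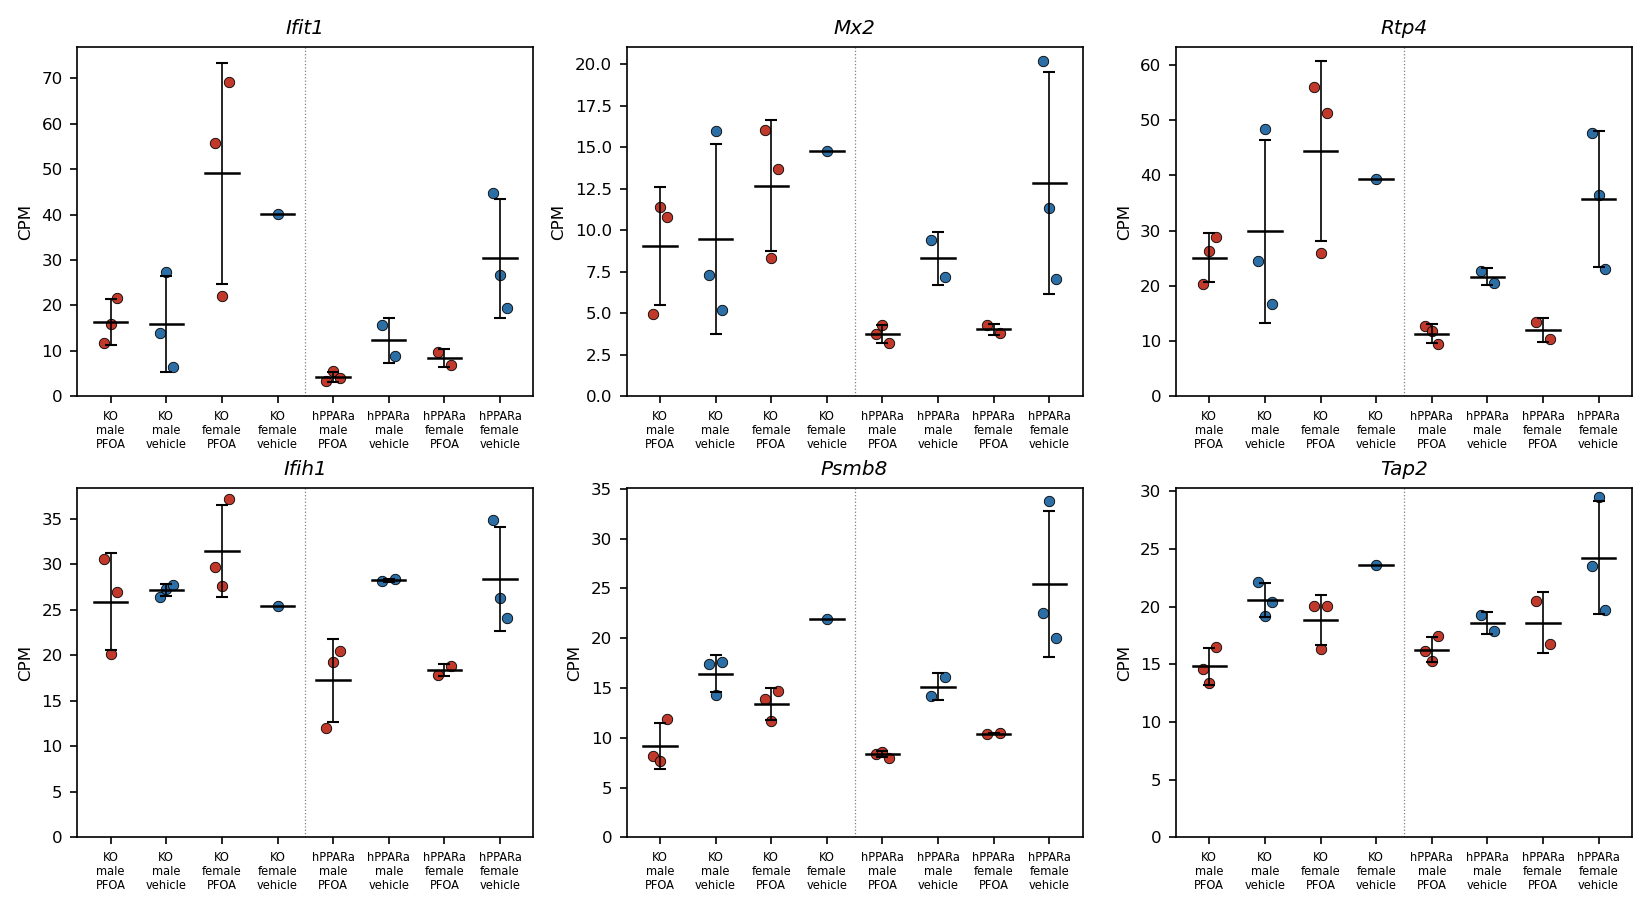
CPM (y axis) of Ifit1, Mx2, Rtp4, Ifih1, Psmb8 and Tap2 in each of the 20 libraries (points), by genotype, sex and water (x axis), with red for PFOA, blue for vehicle, a line for the group mean and a bar for its SD. In hPPARa the PFOA points of Mx2 (3.19 to 4.28 CPM) lie below all vehicle points (7.06 to 20.2 CPM), while in KO the PFOA (4.99 to 16.0 CPM) and vehicle points (5.18 to 16.0 CPM) overlap.

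Whether the effect of PFOA differed between KO and hPPARa was tested as 1 interaction term in a model of all 20 libraries, with values given as KO minus hPPARa on the log2 scale. None of the 47 genes passed by edgeR, where 0.443% of all 15811 genes were higher and 0.727% lower. At an unadjusted p under 0.05 there were 21, all positive, against 14% of all genes in either direction. DESeq2 called 4. The estimate was positive for 44 of the 47 genes, with a median of 0.88, where 50.2% of all genes had a negative one. By role the median was 0.92 over the 38 interferon response genes and 0.08 over the 9 antigen presentation genes.

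The 4 genes with the smallest p were Ddx60 (1.35 ± 0.38, adjusted p = 0.0892), Ifih1 (0.72 ± 0.21, adjusted p = 0.0950), Irf9 (0.92 ± 0.28, adjusted p = 0.121) and Cmpk2 (1.33 ± 0.43, adjusted p = 0.153). For Ddx60 the log2 fold change with PFOA was 0.38 ± 0.24 in KO and −0.97 ± 0.26 in hPPARa. For Cmpk2 these values were 0.52 ± 0.38 in KO and −0.81 ± 0.19 in hPPARa. Ifit1 had the highest estimate of the 47, 1.82 ± 0.58 (adjusted p = 0.161), and its KO libraries ran from 6.44 to 69.2 CPM. For Psmb8, which fell in both genotypes, the difference was 0.29 ± 0.21 (adjusted p = 0.578). So 2 calls in KO and 23 in hPPARa do not by themselves show a difference for any single gene, and the adjusted test of the difference called none.

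**Figure D3:**
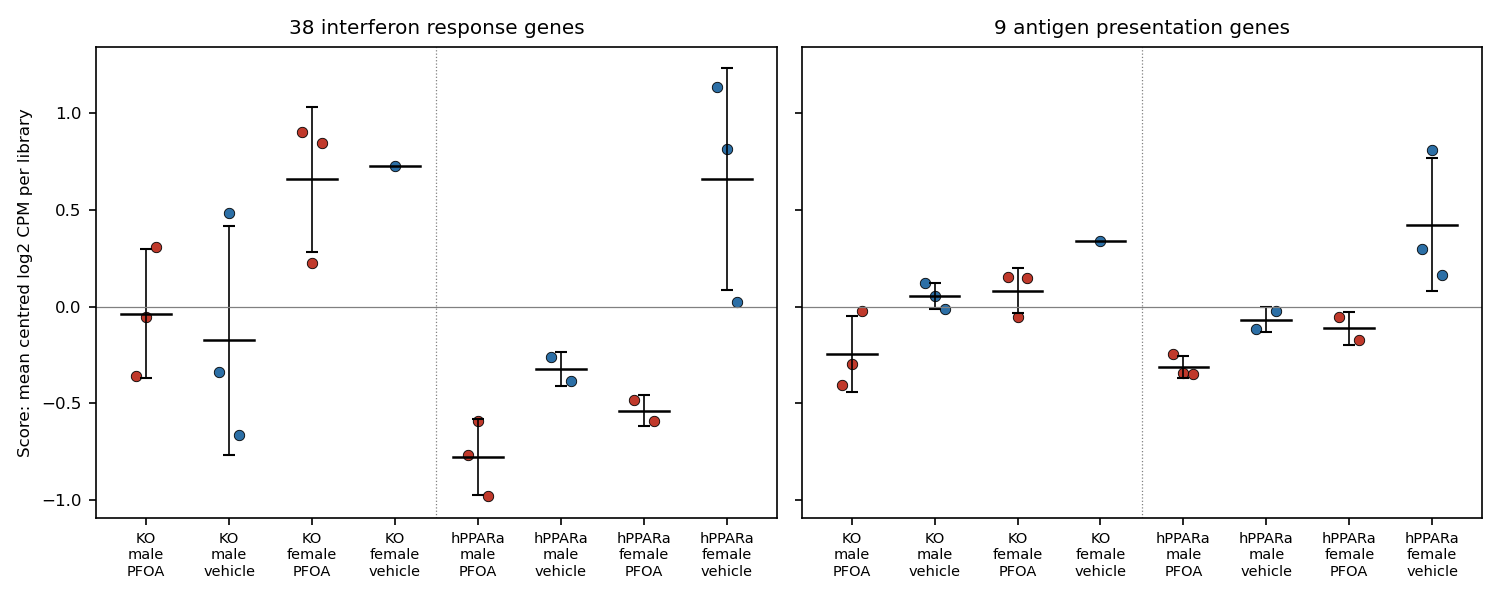
Score per library (y axis, mean log2 CPM of the genes after centring each gene on its mean over the 20 libraries) by genotype, sex and water (x axis), for the 38 interferon response genes in the left panel and the 9 antigen presentation genes in the right panel; points are libraries, red PFOA and blue vehicle, with a line for the group mean and a bar for the SD. The hPPARa PFOA libraries score −0.98 to −0.48 for the interferon response genes, below the hPPARa vehicle libraries at −0.39 to 1.14, while in KO the PFOA (−0.36 to 0.90) and vehicle libraries (−0.66 to 0.73) overlap. For the antigen presentation genes PFOA and vehicle libraries overlap in hPPARa (−0.35 to −0.05 and −0.11 to 0.81) and in KO (−0.40 to 0.15 and −0.01 to 0.34).

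A score per library, the mean of the centred log2 CPM over the genes, describes the 47 together and was not tested. Averaged over the sexes, PFOA minus vehicle was −0.02 in KO and −0.74 in hPPARa, where the SD within groups was 0.32. In KO the group means were −0.08 in PFOA males and 0.55 in PFOA females, against −0.13 in vehicle males and 0.65 in the vehicle female. In hPPARa they were −0.69 in PFOA males and −0.45 in PFOA females, against −0.27 in vehicle males and 0.61 in vehicle females. Leaving out any 1 library moved the difference between −0.13 and 0.11 in KO and between −0.88 and −0.65 in hPPARa, where the KO value without the single vehicle female came from the males alone (0.05). Without the 3 libraries of mixed sex signal, again from the males alone, the KO difference was 0.07.

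KO and hPPARa livers were also compared on the same water, with the same libraries as in the comparisons above. On PFOA, Ifit1, Ifit3, Ifit3b, Usp18, Rsad2, Oasl1, Mx2 and other effectors were higher in KO livers. In all, 20 of the 47 genes were higher in KO than in hPPARa and 0 lower, where 7.13% of all 15811 genes were higher and 7.79% lower. The median log2 fold change (KO over hPPARa) was 0.78, against 0.00 over all genes, and 29 genes, all higher, had an unadjusted p under 0.05, against 28.1% of all genes. DESeq2 called 25. Higher genes included 3 of 4 sensors, 3 of 4 transcription factors, 2 of 3 genes of the Isg15 system, 3 of 4 Ifit genes, 2 of 6 Oas genes, 5 of 9 other effectors, 1 of 8 GTPases and 1 of 9 antigen presentation genes.

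Ifit1 averaged 32.8 ± 23.8 CPM in KO (SD, n = 6) and 5.98 ± 2.57 CPM in hPPARa livers (n = 5) on PFOA, and was 4.66-fold higher (2.22 ± 0.40, adjusted p = 0.00167). Usp18 averaged 24.7 ± 10.2 CPM in KO and 6.12 ± 2.08 CPM in hPPARa and was 3.77-fold higher (1.91 ± 0.41, adjusted p = 0.00528). Rsad2 averaged 16.1 ± 6.88 CPM in KO and 4.82 ± 1.29 CPM in hPPARa (1.69 ± 0.34, adjusted p = 0.00323). For these 3 genes every KO library lay above every hPPARa library. Oasl1, an Oas-like protein that in mice restrains Irf7 translation, averaged 13.4 ± 4.78 CPM in KO and 4.17 ± 1.21 CPM in hPPARa and was 3.02-fold higher (adjusted p = 0.00143). In all, 15 of the 47 genes had every KO PFOA library above every hPPARa PFOA library, as 3.78% of all genes did. They were Ddx60, Irf7, Irf9, Usp18, Ifit1, Ifit3, Ifit3b, Oasl1, Mx2, Rsad2, Ifi44, Rtp4, Ifi47, Irgm1 and Gbp7.

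Of the 20 calls, 14 held in all 25 alternatives: Ifih1, Ddx60, Irf9, Isg15, Usp18, Ifit1, Ifit3, Ifit3b, Oasl1, Mx2, Rsad2, Cmpk2, Rtp4 and Parp14. The others were Dhx58, Irf7, Stat2, Oas1g, Irgm1 and B2m. Dhx58 was lost only without hPPARa female PFOA replicate 2 (adjusted p = 0.0682). Irf7, Stat2, Oas1g, Irgm1 and B2m were each lost without hPPARa female PFOA replicate 1 or 2, hPPARa male PFOA replicate 3, KO female PFOA replicate 1 or KO male PFOA replicate 3, and in some cases other libraries (adjusted p up to 0.107, 0.103, 0.137, 0.128 and 0.106). Those of Irf7, Stat2, Oas1g and B2m were also lost without the 3 KO libraries of mixed sex signal, where the count was 16. B2m was the only antigen presentation gene among the 20, at 0.35 ± 0.10 (adjusted p = 0.0280). Psmb8, by contrast, was at 0.23 ± 0.14 (adjusted p = 0.293) and H2-K1 at −0.01 ± 0.08 (adjusted p = 0.950).

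On vehicle, none of the 47 genes passed between KO and hPPARa by edgeR or by DESeq2, where 2% of all genes were higher and 1.76% lower. The unadjusted p was under 0.05 for 2, both lower, against 19.7% of all genes. The median log2 fold change was −0.04. Ifit1 was at 0.40 ± 0.42 (adjusted p = 0.650), Usp18 at 0.61 ± 0.43 (adjusted p = 0.473) and Mx2 at 0.14 ± 0.35 (adjusted p = 0.878). Bst2 alone had every KO library (73.0 to 99.3 CPM) below every hPPARa library (102 to 137 CPM), as 3.5% of all genes did, at −0.31 ± 0.14 (adjusted p = 0.209).

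**Figure D4:**
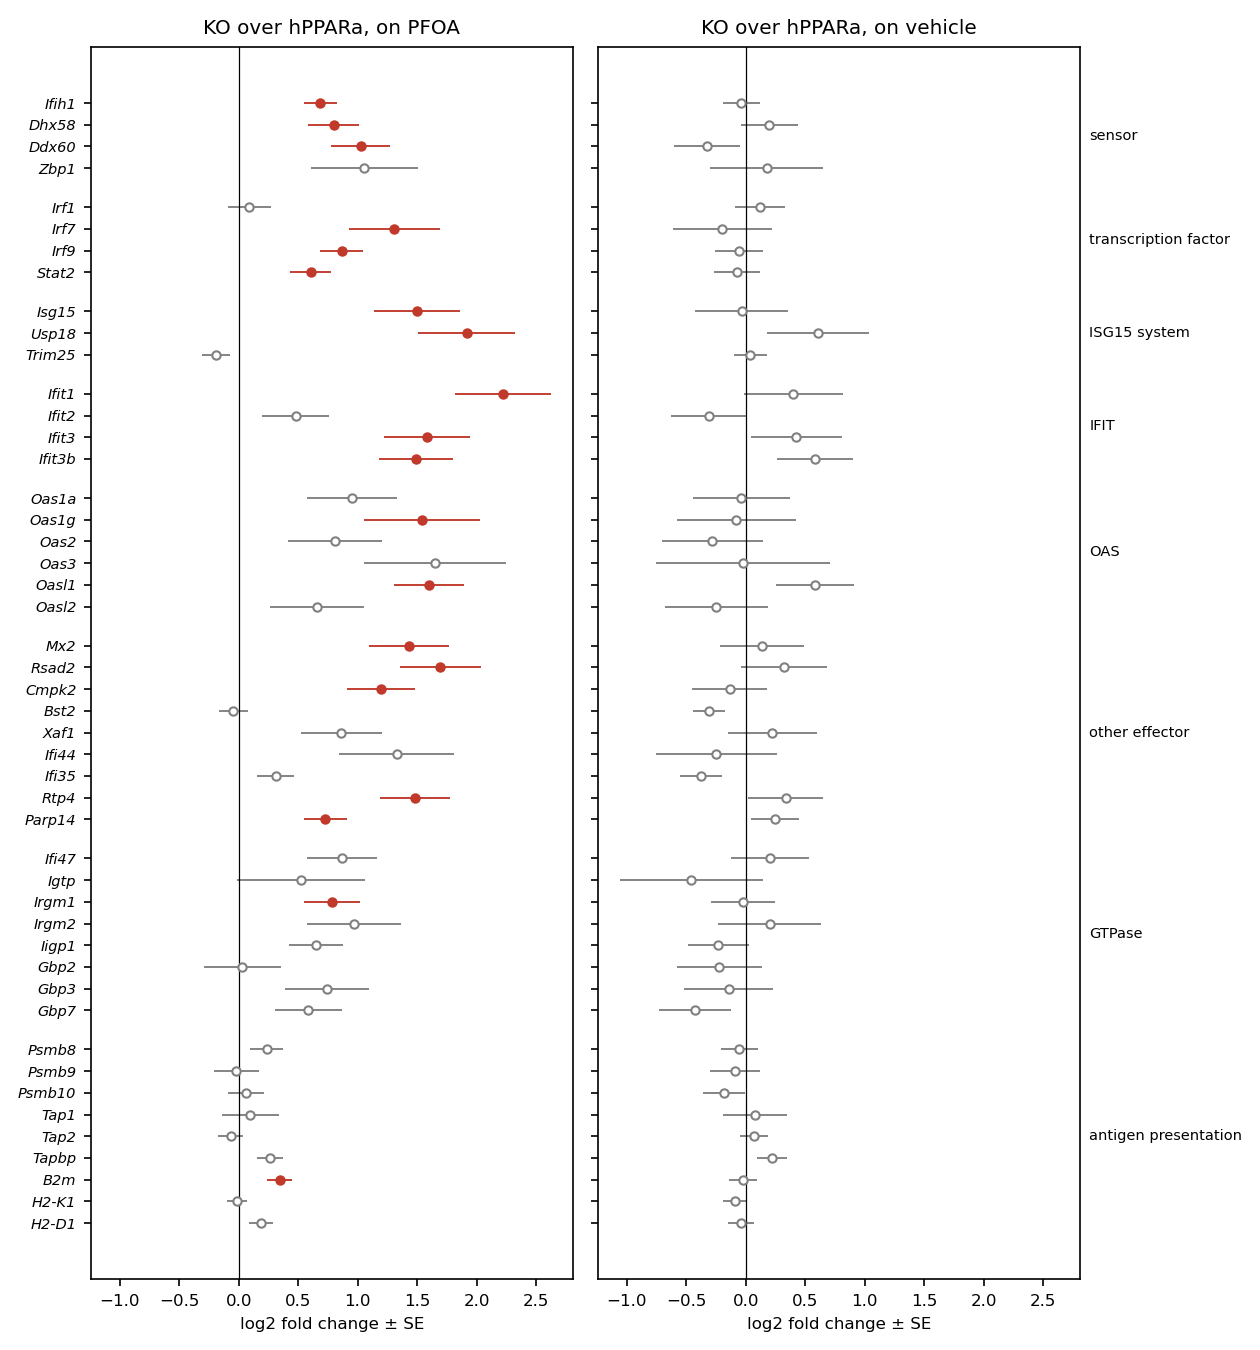
Log2 fold change of the 47 genes in KO over hPPARa livers (x axis; point, edgeR estimate; bar, SE), on PFOA on the left and on vehicle on the right, with genes grouped by role down the page. Filled red points passed an adjusted p of 0.05; there are 20 on PFOA, led by Ifit1 at 2.22, and 0 on vehicle.

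The effect of PFOA was also read within each sex. In hPPARa males (3 PFOA against 2 vehicle) 1 of the 47 genes, Psmb8, was lower (−0.86 ± 0.20, adjusted p = 0.0172) and 0 higher, where 2.9% of all genes were lower and 5.3% higher. The median was −0.42, and 10 genes, all lower, had an unadjusted p under 0.05, against 21.8% of all genes. DESeq2 called 5. The count ran from 0 without hPPARa male vehicle replicate 1 to 7 without hPPARa female vehicle replicate 1 and 6 without hPPARa female vehicle replicate 3, libraries that enter through the shared estimate of the spread. It was 2 without hPPARa male PFOA replicate 1. Psmb8 was also lost without hPPARa male vehicle replicate 2 or hPPARa male PFOA replicate 3 (adjusted p up to 0.148).

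In hPPARa females (2 PFOA against 3 vehicle) 25 of the 47 were lower and 0 higher, where 7.87% of all genes were lower and 10.5% higher. The median was −1.16, 37 genes had an unadjusted p under 0.05, against 33.5% of all genes, and DESeq2 called 34. Leaving out hPPARa female PFOA replicate 1 gave 8, leaving out hPPARa female PFOA replicate 2 gave 5, and leaving out hPPARa female vehicle replicate 3 gave 38. Ifi35 (−1.16 ± 0.18), Rtp4 (−1.58 ± 0.27), Ifit3b (−1.75 ± 0.32), Iigp1 (−1.46 ± 0.23) and Psmb8 (−1.29 ± 0.20) were the 5 whose call held in all 14 alternatives. Without overlap, PFOA lay below vehicle for 28 genes in males (18.8% of all genes) and for 36 in females (25.3%).

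The difference between the sexes itself, as male minus female PFOA effect in hPPARa, passed for none of the 47 genes by edgeR, where 0.0417% of all genes were higher and 0.0625% lower. The estimate was positive for 42 of 47, with a median of 0.67, where 47.5% of all genes had a negative one. Of the 11 with an unadjusted p under 0.05, against 10.3% of all genes, all were positive. DESeq2 called 2, and 2 passed by edgeR without hPPARa female vehicle replicate 3. The smallest p belonged to Iigp1 (1.23 ± 0.32, adjusted p = 0.254), Zbp1 (2.32 ± 0.59, adjusted p = 0.257), Ifit2 (1.47 ± 0.46, adjusted p = 0.310) and Oas1a (1.70 ± 0.60, adjusted p = 0.362). As the values above show, the vehicle females were the high group for Zbp1, Ifit2 and Oas1a.

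In KO females (3 PFOA against 1 vehicle, a single library assumed to vary like the others) none of the 47 passed by edgeR or DESeq2. The background was 2.97% lower and 2.33% higher, and 2 had an unadjusted p under 0.05, against 20.1% of all genes. In KO males (3 against 3) Psmb8 (−0.83 ± 0.17, adjusted p = 0.0124) and Tap2 (−0.47 ± 0.13, adjusted p = 0.0384) were lower, where 3.46% of all genes were lower and 5.63% higher, 3 of the 47 had an unadjusted p under 0.05, against 24.9% of all genes, and DESeq2 also called 2. Tap2 did not pass without any 1 of the 6 male libraries, and Psmb8 did not without KO male PFOA replicate 2, so that the count was 0 without that library and 1 without KO male vehicle replicate 1 or 3 or KO male PFOA replicate 1 or 3. In KO males 5 genes, Psmb8, Psmb10, Tap2, B2m and H2-K1, had every PFOA library below every vehicle library, as 15.4% of all genes did.

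Males and females were compared over both waters. In KO, 8 of the 47 genes were lower in males and 0 higher, where 2.15% of all genes were lower and 1.26% higher: Gbp3 (−1.79 ± 0.27 on the log2 scale, males over females), Ifit3b (−1.35 ± 0.31), Gbp2 (−0.92 ± 0.18), Ddx60 (−0.91 ± 0.23), Gbp7 (−0.80 ± 0.18), Parp14 (−0.70 ± 0.17), Psmb10 (−0.64 ± 0.12) and Tapbp (−0.59 ± 0.11). The median was −0.69, and 28 had an unadjusted p under 0.05, against 19.5% of all genes. DESeq2 called 18. Tapbp alone kept its call in all 15 alternatives. The count was 1 without KO female vehicle replicate 1, 1 without the 3 libraries of mixed sex signal and 14 without KO male vehicle replicate 2. It was 4 without KO female PFOA replicate 1 or 3, KO male vehicle replicate 1, or KO male PFOA replicate 1 or 2, and 5 without KO male vehicle replicate 3. In hPPARa none passed by edgeR, where 1.94% of all genes were lower and 1.53% higher, 23 had an unadjusted p under 0.05, all lower, against 17.1% of all genes, and DESeq2 called 12. The median was −0.56, and 46 of 47 were negative, against 49.1% of all genes. The edgeR count was 1 without hPPARa female vehicle replicate 1 and 5 without hPPARa female vehicle replicate 3, and it was 2 when hPPARa male PFOA replicate 1 was left out.

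Genes of the same pathway outside the 47 were read from lists of ligands, receptors, sensors, further induced genes and presentation genes. Over all genes tested by edgeR, 7.41% were higher and 6.36% lower with PFOA in KO, and 12.8% higher and 9.76% lower in hPPARa. At an unadjusted p under 0.05 by edgeR there were 29.1% in KO and 36.1% in hPPARa. Counts in these lists and in the markers below stand beside those shares, and other comparisons beside the shares given above. None of 21 interferon ligand genes had enough counts to be tested. Ifnb1 had 2 counts in 2 libraries, Ifng 8 counts in 7 and Ifnk 10 in 8, and most ligand genes had none. Of 16 tested receptors, kinases and brakes, 3 rose and 0 fell with PFOA in KO by edgeR. Of 15 tested in hPPARa, 2 rose and 0 fell, and 5 rose without hPPARa male PFOA replicate 1. The share that rose in hPPARa was close to that of all genes. Ifnar2, a chain of the type I interferon receptor, averaged 63.2 ± 8.82 CPM in KO PFOA and 37.5 ± 3.89 CPM in KO vehicle livers, and rose by a log2 fold change of 0.71 ± 0.11 (adjusted p = 0.00113). In hPPARa it averaged 63.2 ± 5.61 CPM on PFOA and 38.8 ± 4.45 CPM on vehicle, and rose by 0.71 ± 0.10 (adjusted p = 0.000214). Ifngr2, a chain of the interferon gamma receptor, rose by 0.36 ± 0.10 in KO (adjusted p = 0.0306) and by 0.60 ± 0.13 in hPPARa (adjusted p = 0.00511). Without the 3 KO libraries of mixed sex signal, the adjusted p of Ifnar2 in KO was 0.0528. That of Ifngr2 in KO reached 0.169 over its alternatives, and its call was lost without KO male vehicle replicate 2 or 3, KO male PFOA replicate 2 or 3, or KO female vehicle replicate 1.

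Ptpn2, a phosphatase that restrains JAK signalling, rose by 0.40 ± 0.11 in KO (adjusted p = 0.0311), a call lost without KO male vehicle replicate 1 or 3, KO male PFOA replicate 2 or 3, or KO female vehicle replicate 1, and without the 3 libraries of mixed sex signal (adjusted p up to 0.212). Without those 3 libraries none of the receptors, kinases and brakes passed in KO.

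In the nucleic acid sensing pathway, 2 of 17 tested genes rose and 1 fell in KO, and 2 rose and 2 fell in hPPARa. The hPPARa shares were close to those of all genes. Ikbke, a kinase that activates Irf3 and Irf7, rose by 1.59 ± 0.17 in KO (adjusted p = 0.000130) and by 0.75 ± 0.13 in hPPARa (adjusted p = 0.00111). Irf5, a factor of Toll-like receptor signalling, fell by 0.64 ± 0.14 in KO (adjusted p = 0.00844) and by 1.01 ± 0.31 in hPPARa (adjusted p = 0.0473). The hPPARa call of Irf5 was lost without any 1 of the libraries except female vehicle replicate 3 and male PFOA replicate 1 (adjusted p up to 0.163), and its KO call in the joint fit (adjusted p = 0.111). Myd88, the Toll-like receptor adaptor, rose by 0.34 ± 0.10 in hPPARa (adjusted p = 0.0291), and Irf3, the factor that first induces interferon, fell by 0.24 ± 0.08 (adjusted p = 0.0482). Ifi207, a mouse member of the Ifi200 family, rose by 0.63 ± 0.18 in KO (adjusted p = 0.0323). These 3 calls depended on single libraries. Myd88 was lost without either hPPARa PFOA female, hPPARa male or female vehicle replicate 2, or hPPARa male PFOA replicate 3 (adjusted p up to 0.0838). Irf3 was lost without those libraries apart from male vehicle replicate 2, and also without hPPARa male or female vehicle replicate 1 or hPPARa male PFOA replicate 2 (adjusted p up to 0.208). Ifi207 was lost without any 1 KO male library except vehicle replicate 2, and without the 3 libraries of mixed sex signal (adjusted p up to 0.0857).

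Among 59 further interferon-induced genes, edgeR called 3 higher and 0 lower in KO, where the median log2 fold change was 0.04, and 1 higher and 12 lower in hPPARa, where it was −0.38. DESeq2 called 4 higher and 2 lower in KO, and 1 higher and 14 lower in hPPARa. The KO calls were 5 higher and 3 lower with no filter on low counts, 3 higher and 2 lower without KO female PFOA replicate 1, and 5 higher and 0 lower without KO female PFOA replicate 2. Of the hPPARa female libraries, leaving out PFOA replicate 2 gave 6 lower genes in place of 12, PFOA replicate 1 gave 7 and vehicle replicate 3 gave 19. Ly6e, a membrane-anchored surface protein, fell by 1.18 ± 0.13 in hPPARa (adjusted p = 2.69e-05). Ifitm3, a membrane protein that blocks fusion of viruses, averaged 201 ± 23.3 CPM in hPPARa PFOA and 463 ± 85.2 CPM in hPPARa vehicle livers, and fell by 1.16 ± 0.13 (adjusted p = 4.87e-05). In hPPARa, Mx1, the sister gene of Mx2, fell by 1.53 ± 0.33 (adjusted p = 0.00472) and Nmi, the partner of Ifi35, by 0.54 ± 0.10 (adjusted p = 0.00182). Ifi27l2b rose in both genotypes, to 39.1 ± 11.4 CPM in KO PFOA, against 9.07 ± 2.66 CPM in KO vehicle livers (2.04 ± 0.27, adjusted p = 0.00142), and to 29.3 ± 12.02 CPM in hPPARa PFOA, against 6.17 ± 3.07 CPM in hPPARa vehicle livers (2.31 ± 0.42, adjusted p = 0.00585). In KO, Cxcl10, a T cell chemokine, rose by 1.18 ± 0.28 (adjusted p = 0.0181, and 0.0566 without KO female vehicle replicate 1) and Lgals3bp, a secreted glycoprotein, by 0.61 ± 0.15 (adjusted p = 0.0177, and up to 0.164 without KO male vehicle replicate 1, KO male PFOA replicate 2 or the 3 libraries of mixed sex signal).

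Of 23 other class I presentation genes, 0 rose and 3 fell in KO by edgeR, and 2 rose and 7 fell in hPPARa. In KO none passed without the 3 libraries of mixed sex signal, and in hPPARa 4 fell without hPPARa female PFOA replicate 1. In hPPARa, H2-T23, a non-classical class I gene, fell by 0.61 ± 0.11 (adjusted p = 0.00156). Calreticulin (Calr) and Pdia3, which fold class I molecules, fell by 0.57 ± 0.11 (adjusted p = 0.00222) and 0.45 ± 0.10 (adjusted p = 0.00608). H2-Q4 fell by 0.37 ± 0.10 in KO (adjusted p = 0.0277, and up to 0.315 without KO male vehicle replicate 1, KO male PFOA replicate 1 or 2, or KO female vehicle replicate 1, or the 3 libraries of mixed sex signal) and by 0.68 ± 0.15 in hPPARa (adjusted p = 0.00517). H2-Q2 was near the detection limit, at 0.121 ± 0.0615 CPM in KO PFOA and 0.682 ± 0.654 CPM in KO vehicle livers. H2-Q1 averaged 0.459 ± 0.246 CPM in KO PFOA and 2.64 ± 3.73 CPM in KO vehicle livers, a call that ended without KO female vehicle replicate 1, where the log2 fold change was −0.91 (adjusted p = 0.354). Psmb5 and Psmb7, the proteasome subunits for which Psmb8 and Psmb10 are exchanged, rose in hPPARa by 0.34 ± 0.11 (adjusted p = 0.0491) and 0.39 ± 0.11 (adjusted p = 0.0210). Psmb5 was lost in 13 of 15 alternatives (adjusted p up to 0.154) and kept only without hPPARa male vehicle replicate 2 or hPPARa male PFOA replicate 3. Psmb7 was lost without either hPPARa PFOA female or hPPARa male vehicle replicate 1 (adjusted p up to 0.0780). Nlrc5, the transactivator of class I genes, was at −0.26 ± 0.13 in KO (adjusted p = 0.189) and −0.41 ± 0.27 in hPPARa (adjusted p = 0.308). None of the class II presentation genes passed in either genotype by edgeR or DESeq2, with 5 of 14 in KO and 2 of 13 in hPPARa at an unadjusted p under 0.05, but 3 were higher in KO with no filter on low counts, and 1 without KO male vehicle replicate 2 or KO female vehicle replicate 1.

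Of 12 Kupffer cell and macrophage markers, 4 rose and 0 fell with PFOA in KO by edgeR, and 0 rose and 5 fell in hPPARa. The KO count of 4 was 6 with DESeq2, 9 with no filter on low counts, 8 without KO male vehicle replicate 2 and 2 without the 3 libraries of mixed sex signal. Those that rose in KO were Adgre1 (0.98 ± 0.17), Cd163 (0.74 ± 0.16), Cd5l (0.67 ± 0.19) and Timd4 (0.65 ± 0.20). Those that fell in hPPARa were Marco (−1.74 ± 0.33), C1qa (−0.51 ± 0.12), Vsig4 (−0.48 ± 0.16), Clec4f (−0.40 ± 0.13) and C1qb (−0.39 ± 0.12). The 12 markers together held 339 to 555 CPM in KO PFOA and 172 to 374 CPM in KO vehicle libraries, and 158 to 428 CPM in hPPARa PFOA and 186 to 545 CPM in hPPARa vehicle libraries, and none was at 0. In hPPARa males the sums were 158 to 219 CPM on PFOA and 186 to 279 CPM on vehicle, which overlap. In hPPARa females they were 342 to 428 CPM on PFOA and 441 to 545 CPM on vehicle, which do not. Marco, C1qa, Adgre1 and Cd163 kept their calls in all alternatives. The calls of Clec4f, Vsig4 and C1qb in hPPARa and of Cd5l and Timd4 in KO did not (adjusted p up to 0.145, 0.174, 0.147, 0.149 and 0.256): the hPPARa calls were lost without hPPARa male or female vehicle replicate 2 or hPPARa female PFOA replicate 1, among others, and the KO calls without KO female vehicle replicate 1, KO female PFOA replicate 1 or 3, KO male vehicle replicate 1 or 3, or KO male PFOA replicate 2 or 3, among others. By the interaction term none of the 12 passed by edgeR and 5 by DESeq2, and 11 had an unadjusted p under 0.05 by edgeR, all positive as KO minus hPPARa. On PFOA, 9 of the 12 were higher in KO than in hPPARa by edgeR, and on vehicle none passed by edgeR or DESeq2, with 2 lower at an unadjusted p under 0.05. Between the sexes, 0 of the 12 passed in KO by edgeR or DESeq2, with 2 at an unadjusted p under 0.05, and 10 were lower in males than in females in hPPARa by edgeR. Markers and interferon genes were both called lower with PFOA in hPPARa, and both called higher in KO than in hPPARa on PFOA. With PFOA in KO, 4 of the 12 markers rose by edgeR, and none of the 38 interferon response genes passed by edgeR or DESeq2. By the interaction term DESeq2 called 4 of the 47 genes and 5 of the 12 markers, all positive, and edgeR none of either. On vehicle neither method called any of either between the genotypes. Between the sexes in KO, edgeR called 8 of the 47 genes and 0 markers, and DESeq2 18 and 0. In hPPARa edgeR called 0 of the 47 genes and 10 markers, and DESeq2 12 and 11. All of these sex calls were lower in males. The part of Kupffer cells in the results was not tested.

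**Figure D5:**
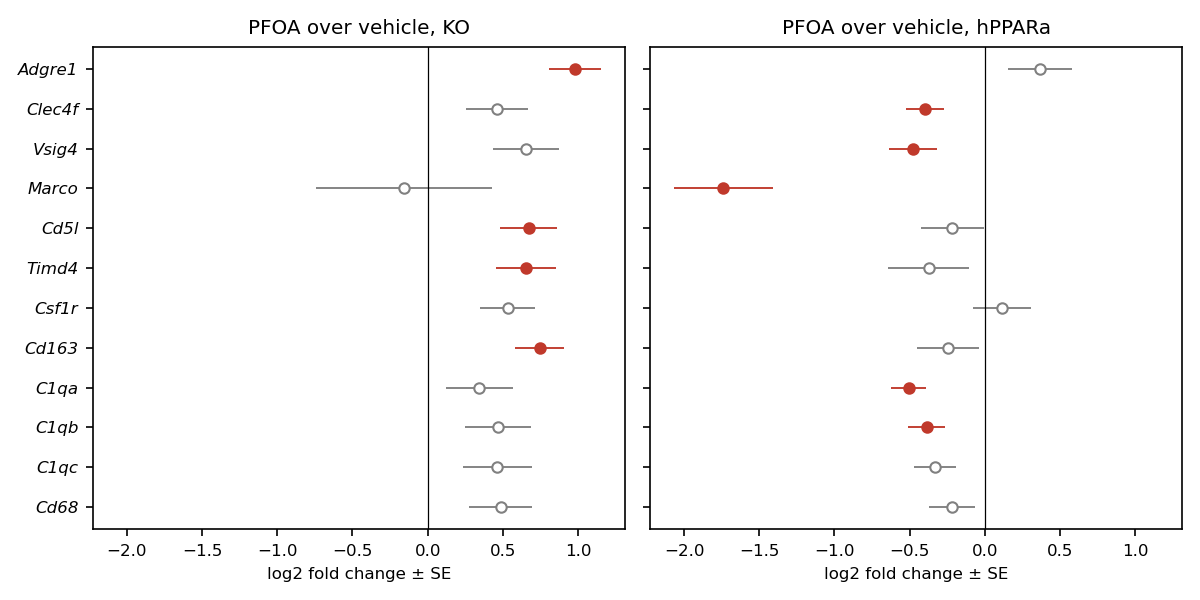
Log2 fold change of 12 Kupffer cell and macrophage markers with PFOA over vehicle (x axis; point, edgeR estimate; bar, SE), in KO on the left and hPPARa on the right. Filled red points passed an adjusted p of 0.05: 4 markers above 0 in KO and 5 below 0 in hPPARa.

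Other markers were as follows. Over both sexes, T and NK cell markers had 0 calls in either genotype by edgeR and DESeq2. Of them, 0 in KO and 1 in hPPARa had an unadjusted p under 0.05. They held 6.65 to 7.59 CPM together in hPPARa PFOA females against 10.8 to 13.1 CPM in hPPARa vehicle females. Within hPPARa females edgeR called Gzmb lower (−1.97 ± 0.50, adjusted p = 0.0177). DESeq2 called 1 of 8 lower in hPPARa females and 0 of 11 in hPPARa males. Dendritic cell markers had 0 calls as well over both sexes, by edgeR and DESeq2, and none had an unadjusted p under 0.05. Within hPPARa females Siglech (−1.16 ± 0.52) and Clec9a (−0.85 ± 0.28) were lower at that level by edgeR, but neither passed. B cell markers had 0 calls by edgeR, with 0 in KO and 1 in hPPARa at an unadjusted p under 0.05, and DESeq2 called 1 higher in hPPARa. By edgeR 1 was higher in KO without KO female vehicle replicate 1, without the 3 libraries of mixed sex signal and with no filter, and 1 in hPPARa without hPPARa male PFOA replicate 3. Of 9 hepatocyte markers found, 2 fell in KO and 5 in hPPARa by edgeR, and by DESeq2 5 in KO and 6 in hPPARa. The KO count by edgeR was 4 without KO female PFOA replicate 3 or KO female vehicle replicate 1, and 1 without the 3 libraries of mixed sex signal. In hPPARa the call of Alb was lost in 8 of 15 alternatives (adjusted p up to 0.153), and Apoa1, Ttr, Ahsg and Serpina1c kept theirs in all. The 9 hepatocyte markers took 7.67% to 9.87% of the scaled library total in KO PFOA and 10.1% to 11.7% in KO vehicle libraries. In hPPARa they took 9.08% to 13.1% in PFOA and 12.1% to 21.5% in vehicle libraries. Neutrophil markers together held 90.1 to 327 CPM in KO PFOA and 0.947 to 3.65 CPM in KO vehicle libraries, and 5.36 to 11.2 CPM in hPPARa PFOA and 2.35 to 3.18 CPM in hPPARa vehicle libraries. Of the neutrophil markers tested, S100a8 alone was called, higher in KO (8.86 ± 0.57, adjusted p = 5.85e-05) and in hPPARa (4.60 ± 0.41, adjusted p = 8.35e-06), in all alternatives run. Of 6 stellate cell markers, 3 fell in each genotype. The KO count was 1 without KO female vehicle replicate 1, 2 without KO male PFOA replicate 2 and 0 without the 3 libraries of mixed sex signal, and the hPPARa count was 2 without either hPPARa PFOA female. Of 8 sinusoidal endothelial markers, 1 rose in KO and 4 in hPPARa. In hPPARa the call of Pecam1 was lost in 6 of 15 alternatives (adjusted p up to 0.123) and that of Kdr in the joint fit (adjusted p = 0.0511). Lyve1 and Oit3 kept theirs in all. Of 5 cholangiocyte markers, 5 fell in KO, where the vehicle female held 186 CPM, and 0 passed in hPPARa by edgeR or DESeq2, with none at an unadjusted p under 0.05, but 2 fell without hPPARa male PFOA replicate 1. The 5 calls in KO were all lost without KO female vehicle replicate 1, and without the 3 libraries of mixed sex signal. Mitochondrially encoded genes took 6.74% to 9.41% of the scaled library total in KO PFOA and 7.96% to 13.8% in KO vehicle libraries. In hPPARa males they took 8.69% to 12.2% on PFOA and 9.17% to 11.5% on vehicle, which overlap. In hPPARa females they took 6.29% to 6.71% on PFOA and 10.3% to 12.1% on vehicle, which do not. Of the 13 genes listed, 6 had 0 counts in every hPPARa PFOA library, mt-Co2, mt-Co3 and mt-Atp6 among them. In hPPARa vehicle, KO PFOA and KO vehicle libraries 4 each had 0 counts throughout. These shares thus cover only part of the mitochondrially encoded genes. Of 7 tested, mt-Nd4 and mt-Cytb fell in KO (−0.50 ± 0.14, adjusted p = 0.0351, and −0.52 ± 0.13, adjusted p = 0.0174) and in hPPARa (−0.62 ± 0.16, adjusted p = 0.0131, and −0.60 ± 0.16, adjusted p = 0.0165). Both hPPARa calls were lost without either hPPARa PFOA female, and the KO call of mt-Nd4 without KO male vehicle replicate 1 or 2, any 1 KO PFOA male or KO female PFOA replicate 3. Within hPPARa females edgeR called all 7 tested genes lower (adjusted p 0.00180 to 0.0453). Within hPPARa males none passed, and the lowest adjusted p by edgeR was 0.395. The part of these values in the interferon results was not tested.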

How the data were processed

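RNA was sequenced from 20 bulk liver samples. The authors deposited 2 tables of raw read counts per gene, 1 for each genotype, with 53599 gene rows in both. Per the submitters' processing notes, reads were checked with FastQC 0.11.5, trimmed with cutadapt 1.15, mapped to GRCm39 with STAR 2.5.3 and counted with featureCounts 1.6.1. Neither the gene annotation nor the strand setting of that counting is given in the sources. Each deposited column was matched to its sample by name, and every row named a gene.

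Counts were tested as deposited with edgeR 4.0.16 (R 4.3.3): TMM scaling, a filter on low counts by group (filterByExpr), a robust quasi-likelihood fit and Benjamini-Hochberg adjustment over all genes tested. Within a genotype the model had sex and exposure as terms, effects by sex came from the 4 group means, and effects across genotypes from 1 model of all 20 libraries. A gene was called at an adjusted p under 0.05, and the SE is the log2 fold change divided by the square root of F. CPM, and the shares in percent of the scaled library total, used TMM totals of all 20 libraries. Alternatives were DESeq2 1.42.0, RLE scaling, no filter, a replicate block, a joint fit, leaving out each library and leaving out the 3 KO libraries of mixed sex signal. Leaving out each library, and those 3 KO libraries, for the score, and the counts of other lists under each alternative, were added after seeing the data. The model steps were tested on simulated data.

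The 47 genes, the pathway lists and the markers were chosen with earlier results of these data known. Any of the 47 may be named. Values in every library are given for the 2 genes of each role with the smallest p for PFOA in hPPARa and for up to 4 with the smallest p for PFOA in KO, by genotype and by sex in hPPARa. From each other pathway list up to 4 called genes with the smallest p per genotype are named, and Nlrc5 always. A further gene that this rule names is not reported here. Mx2, Bst2, Psmb5 and Psmb7 were added after their values were seen. Promoters were searched with Python 3.11.15.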

Additional observations from a re-analysis of the deposited data

Results flagged for a closer look

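Ifitm3, an interferon-induced gene outside the 47, was the gene of the pathway lists whose PFOA effect differed between the genotypes by a test of the difference itself, an interaction term in the edgeR model of all 20 libraries. It averaged 423 ± 66.6 CPM in KO PFOA (SD, n = 6) and 480.3 ± 63.5 CPM in KO vehicle livers (n = 4), a log2 fold change of −0.24 ± 0.13 (adjusted p = 0.227). In hPPARa it averaged 201 ± 23.3 CPM on PFOA and 463 ± 85.2 CPM on vehicle (n = 5 each), a log2 fold change of −1.16 ± 0.13. The difference, KO minus hPPARa, was 0.92 ± 0.19 (edgeR adjusted p = 0.0182). It held in 22 of 25 alternatives (adjusted p up to 0.207). The call was lost without hPPARa female PFOA replicate 1, without KO female vehicle replicate 1 and without the 3 KO libraries of mixed sex signal. Over all 15811 genes tested by edgeR, 0.443% were higher and 0.727% lower by this term. DESeq2 called 5 of 59 further interferon-induced genes and 1 of 17 genes of nucleic acid sensing by the same term, all positive.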

How the results depend on the processing

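For PFOA in hPPARa the count of 23 lower genes was 23 with RLE scaling, 23 with no filter on low counts, 28 with DESeq2, 19 with the replicate block and 22 in the joint fit, and 9 to 27 when 1 library was left out. For KO against hPPARa on PFOA, 20 became 25 with DESeq2, 16 without the 3 KO libraries of mixed sex signal and 14 to 24 with 1 library left out. For PFOA in KO, 2 became 5 with no filter, 0 without those 3 libraries and 2 to 4 with 1 library left out. For PFOA in hPPARa males, 1 became 2 with RLE scaling, 11 with no filter, 5 with DESeq2, 2 with the replicate block and 0 to 7 with 1 library left out. In hPPARa females 25 ran from 5 to 38. In KO females 0 became 3 with no filter and stayed at 0 with any 1 library left out but the single KO vehicle female, which this comparison needs. In KO males 2 became 0 without the 3 libraries, and ran from 0 to 2. For PFOA by sex in hPPARa, 0 became 9 with no filter, 2 with DESeq2, 2 with the replicate block and 0 to 2 with 1 library left out. For PFOA by genotype, 0 became 6 with no filter and 4 with DESeq2, and was 0 without any 1 library. On vehicle the count between genotypes was 0 without any 1 library. For males against females in hPPARa, 0 became 14 with no filter, 12 with DESeq2, 2 with the replicate block and 0 to 5 with 1 library left out. In KO, 8 became 14 with no filter, 18 with DESeq2, 4 with the replicate block, 1 without the 3 libraries and 1 to 14 with 1 library left out. The cause of these shifts was not tested.

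The score difference ran from −0.127 to 0.108 in KO and from −0.883 to −0.651 in hPPARa when 1 library was left out, the KO value without the single vehicle female being that of the males alone (0.0538). Without the 3 KO libraries of mixed sex signal it was 0.0666 in KO, from the males alone. It was −0.0220 in KO and −0.757 in hPPARa with a prior count of 0.5. With the median over the genes it was −0.0587 in KO and −0.736 in hPPARa, with RLE scaling −0.0318 in KO and −0.742 in hPPARa, and over the 38 interferon response genes alone 0.0347 in KO and −0.825 in hPPARa. Among the calls of single genes, 2167 of the alternative values stayed past the threshold with the same direction, 445 no longer passed it and 0 reversed. Over 52 same-numbered pairs of replicates the correlation of deviations ran from −0.128 to 0.342 with a median of 0.0194, and 6 were over 0.1. Among these were the same-numbered pairs of hPPARa PFOA males and KO PFOA females, at 0.342, 0.130 and 0.237. Deviations within a group of 2 mirror each other, so these values cannot tell whether replicate numbers pair the samples. Depth was alike in all libraries, but groups of 1 to 3 per sex limit what each can show.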
